A study of Mus musculus with 6 samples.

Results

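The genes examined here move iron into the cell, store it and let it out, and 10 of them were followed in microglial cells with and without extra PGC-1α: Tfrc, Slc11a1, Slc11a2, Lcn2, Fth1, Ftl1, Ncoa4, Slc40a1, Ireb2 and Aco1. Every probe whose RefSeq accession belongs to 1 of these genes was kept, which gave 18 of the 56605 probes on the array that are not controls, for 10 of the 23462 genes these could be matched to. 4 genes had 1 probe and 6 had several, and a gene's probes are numbered here from the brightest to the dimmest. All 18 probes were well above background on the 6 arrays, so none was lost to the filter on dim signals that left 24824 tested probes in all.

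The RNA came from BV2, an immortalized mouse microglial line, treated in every sample with lipopolysaccharide (LPS), a bacterial membrane component that sets off an inflammatory response. 3 arrays held cells without and 3 held cells with PGC-1α overexpression, called control and PGC-1α arrays below, and PGC-1α is a transcriptional coactivator best known for mitochondrial biogenesis. The study's culture methods describe lentiviruses with the PGC-1α coding sequence or a negative control, puromycin selection of the overexpressing cells, and LPS at 500 ng/ml for 6 h, without naming the arrays. The labels do not say whether the control cells of the arrays carried the negative control virus or whether the 3 samples of a group were separate cultures, so p-values measure the spread between these samples, which may be technical.

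Cells take up iron bound to transferrin through the transferrin receptor, and divalent metal transporters then carry it across the endosomal membrane. Iron that is not used is held inside ferritin, a shell of heavy and light chains, and leaves the cell through ferroportin. Iron regulatory proteins bind the messenger RNAs of the receptor, the ferritin chains and ferroportin and set their stability and translation, so that a transcript level on an array is only part of this control. In microglia and macrophages, inflammatory stimuli are known to shift these genes towards iron retention.

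The overexpressed gene gave little check of the labels, since its probes were near background. The brighter of the 2 probes for Ppargc1a, which encodes PGC-1α, passed the scanner software's test for signal above background on 2 of 3 arrays per group. Its log2 values were -6.21, -6.37 and -7.71 in the controls and -5.70, -5.28 and -5.90 with PGC-1α. Where these probes lie relative to the viral coding sequence is not given in the sources used here. Of 12 microglia and macrophage markers, 10 were well above background on all 6 arrays, whereas Cx3cr1 and P2ry12 were on none, and mean levels over the 12 ran from -8.83 to 4.85 in the controls and from -8.39 to 5.60 with PGC-1α. Of those 10, Itgam, Tyrobp, Csf1r, Trem2 and Cd68 were higher under the array scaling described below (differences of 0.46 to 0.75) but not after quantile normalization, and Tmem119 was lower under both (-2.68 and -2.71, limma adjusted p = 5.4e-05 and 9.5e-05). Adgre1 was lower only after quantile normalization (-0.47), and the other 3 passed under neither. A probe of 3 of 4 astrocyte, 2 of 4 neuronal and 4 of 4 oligodendrocyte markers also reached that signal on all 6 arrays. Over all 4 genes of each list, mean levels ran from -6.95 to -2.50, from -7.38 to 4.65 and from -4.88 to -0.36 in the controls, and from -5.96 to -1.64, from -7.26 to 5.35 and from -4.72 to -0.15 with PGC-1α, and the neuronal marker Syt1 was above background on no array. The erythroid marker Hba-a1 was above background on all 6 arrays (-0.54 in the controls, -0.03 with PGC-1α). The part of these markers in the values below was not tested.

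Levels below are log2 intensities relative to the 75th percentile of their own array, and differences are PGC-1α minus control on this log2 scale. That percentile was 1617 to 1893 intensity units in the controls and 856 to 1268 with PGC-1α. The scale matters for these genes. The median difference of all tested probes was 0.15, but with the probes divided by brightness into 10 classes of equal size it was 0.48 in the brightest class, where 6 of the 18 iron probes lie, and -0.15 in class 5. After quantile normalization, which gives all arrays the same distribution of values, the medians were -0.02 overall and -0.02 in the brightest class. Values on both scales are therefore given for the iron probes.

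At an adjusted p of 0.05 in limma, 4 of the 18 iron probes were higher and 4 lower with PGC-1α, against 31.1% and 21.1% of all tested probes, 52.2% together. The iron probes had a median difference of -0.09. After quantile normalization none was higher and 6 were lower, against 19.4% higher and 23.6% lower of all tested probes, and their median was -0.35. The 8 probes called on the 75th percentile scale were also those whose 2 groups did not overlap, which was so for 63.0% of all tested probes. Calls in the same direction on both scales were made for 2 genes, with Slc40a1 lower on its single probe and Slc11a2 lower on 2 of its 4 probes.

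**Figure D1:**
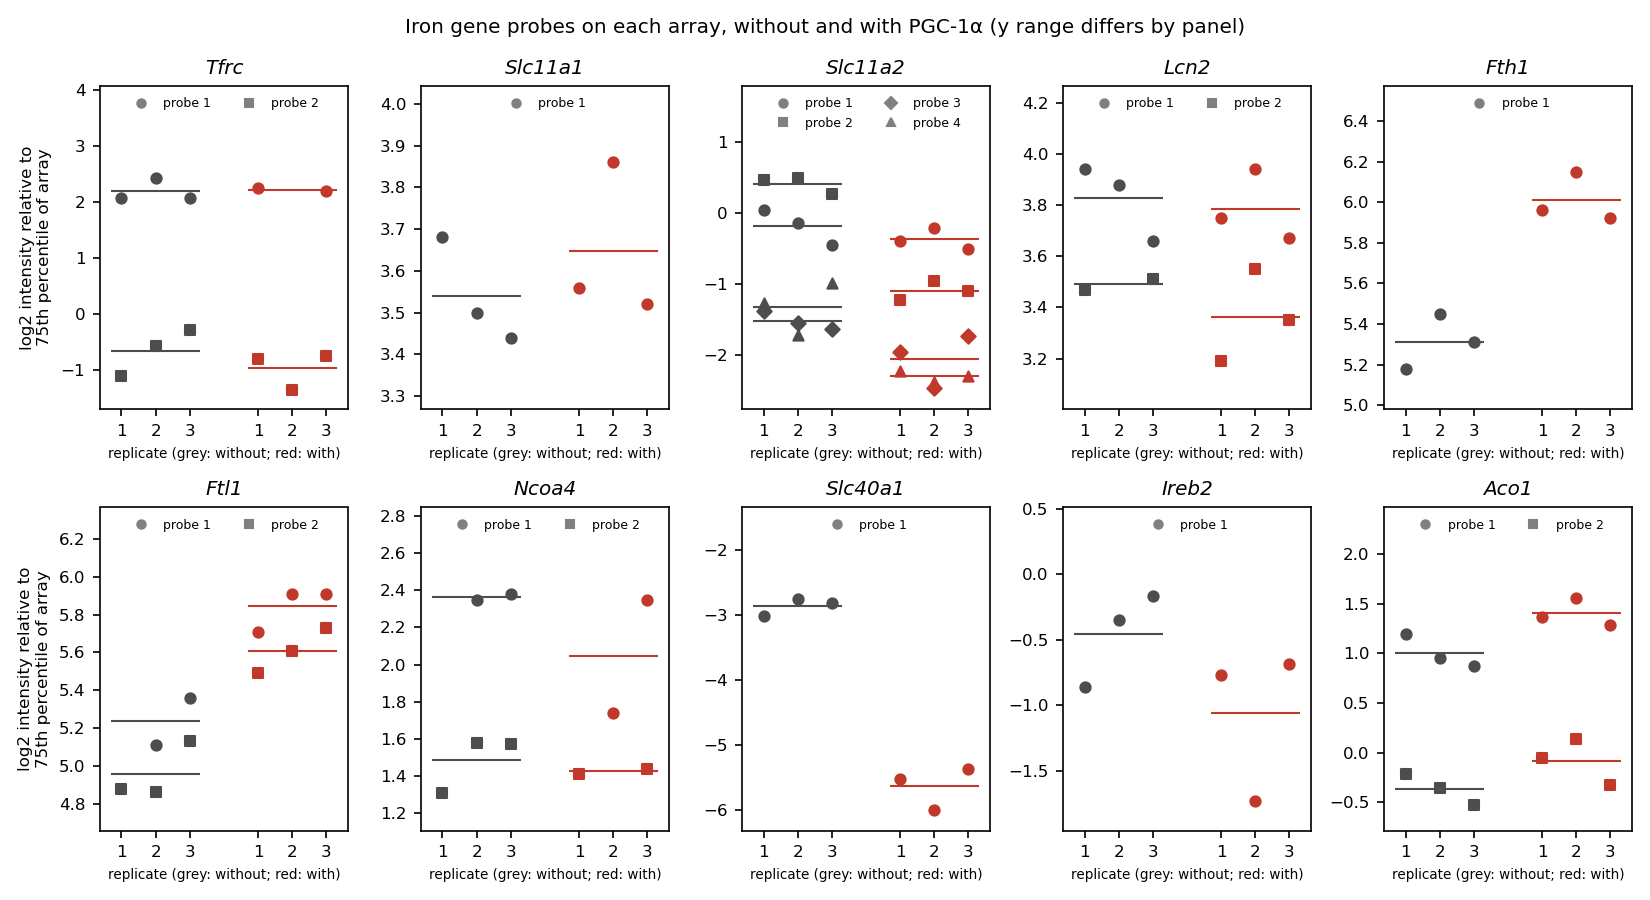
Level of each iron gene probe on each array, as log2 intensity relative to the 75th percentile of the array, with replicate on the x axis, grey for control, red for PGC-1α, one symbol per probe and a line at each group mean. Slc40a1 drops from about -3 to below -5, the ferritin genes Fth1 and Ftl1 rise by less than 1 unit, and Tfrc, Slc11a1, Lcn2, Ncoa4 and Ireb2 overlap between groups.

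The transcript of the 1 export gene among the 10 was lower with PGC-1α, and iron export itself was not tested. Slc40a1 (NM_016917) encodes ferroportin, the known exporter of iron from mammalian cells. Its levels were -3.02, -2.76 and -2.82 in the controls and -5.53, -6.01 and -5.37 with PGC-1α. Every PGC-1α array lay more than 2 units below every control array. The means were -2.87 ± 0.13 and -5.63 ± 0.34 (SD, n = 3 each), a difference of -2.77 (SE 0.18, limma adjusted p = 5.4e-05), or 6.81-fold lower. Of the 24824 tested probes, 85 had a more negative difference.

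Slc40a1 was lower in all 21 alternatives, and the size of the difference changed with the background treatment. It was -2.93 after quantile normalization, -2.69 in the authors' own log2 values, and -2.88 and -2.54 within the first and the second slide. With each array left out in turn it stayed between -2.90 and -2.58. The PGC-1α values lie near the lowest signals that still counted as well above background, which were -6.71, -6.15 and -6.04 on those arrays, and with normexp background correction, which adds an offset before the logarithm, the difference was -1.20 (limma adjusted p = 2.1e-05). It was larger than that of any other iron probe on the 75th percentile and quantile scales, but with normexp and the 75th percentile Slc11a2 probe 2 differed by -1.30.

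Among the uptake genes, Slc11a2 was lower and Tfrc was within the spread of the replicates. Slc11a2 encodes DMT1, the divalent metal transporter that moves iron out of the endosome, and 3 of its 4 probes were lower. Probe 2 (NM_008732) stood at 0.47, 0.50 and 0.27 in the controls and at -1.22, -0.96 and -1.09 with PGC-1α. The groups were more than 1 unit apart. Its difference was -1.50 (SE 0.13, limma adjusted p = 1.7e-04), which is 2.83-fold lower, and it was -1.50 after quantile normalization.

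The other Slc11a2 probes differed in size. Probe 4 had levels of -1.26, -1.72 and -0.99 in the controls and -2.22, -2.37 and -2.29 with PGC-1α, a difference of -0.97 (limma adjusted p = 0.0044) and of -0.97 after quantile normalization (limma adjusted p = 0.0069). Probe 3 (NM_001146161) differed by -0.54 (limma adjusted p = 0.047) and fell short of the threshold after quantile normalization (-0.54, limma adjusted p = 0.065). It also fell short when any one array other than PGC-1α replicate 3 was left out (-0.59 to -0.33). On the second slide, which held 2 arrays in all, its difference was -0.10, against -0.76 on the first. Probe 1, the brightest, had levels of 0.04, -0.14 and -0.45 against -0.40, -0.21 and -0.50, overlapping groups, and a difference of -0.19 (limma adjusted p = 0.35), or -0.17 after quantile normalization (limma adjusted p = 0.41).

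The Slc11a2 call therefore depends on which probe speaks for the gene. Taken by its brightest probe alone it would not pass, and by the mean of its 4 probes the difference was -0.80 (limma adjusted p = 0.0013). The differences of all 4 probes were negative in all 21 alternatives. Slc11a2 is known to have transcripts with different ends, but the positions of the probes are not given in the sources used here.

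Tfrc (NM_011638), the transferrin receptor, did not separate the groups. Probe 1 read 2.08, 2.43 and 2.08 in the controls and 2.25 and 2.20 with PGC-1α, the spot on PGC-1α replicate 2 being marked as an outlier and left out. The difference was 0.03 (SE 0.16, limma adjusted p = 0.90) and -0.22 after quantile normalization (limma adjusted p = 0.35). Probe 2 read -1.09, -0.57 and -0.28 against -0.80, -1.35 and -0.74, also overlapping, with a difference of -0.32 (limma adjusted p = 0.29) and of -0.28 after quantile normalization (limma adjusted p = 0.37).

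Slc11a1 (NM_013612) encodes NRAMP1, a metal transporter of the phagosome membrane in macrophages. Its levels were 3.68, 3.50 and 3.44 in the controls and 3.56, 3.86 and 3.52 with PGC-1α. The groups overlapped, with a difference of 0.11 (SE 0.14, limma adjusted p = 0.56). After quantile normalization the sign turned and the probe passed as lower (-0.41, limma adjusted p = 0.035), as it was in the authors' log2 values (-0.40, limma adjusted p = 0.036).

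Lcn2 encodes lipocalin 2, a secreted protein that binds the siderophores by which bacteria collect iron and that rises strongly with LPS. Probe 1 (NM_008491) had levels of 3.94, 3.88 and 3.66 in the controls and 3.75, 3.94 and 3.67 with PGC-1α, which overlap. The differences of probes 1 and 2 were -0.04 and -0.12 (limma adjusted p = 0.83 and 0.54). After quantile normalization both were lower, with differences of -0.58 and -0.61 (limma adjusted p = 0.011 for each), and the authors' log2 values gave -0.58 and -0.57. Before any scaling, probe 1 stood at 14.60, 14.55 and 14.55 in the controls and at 13.93, 13.68 and 13.98 with PGC-1α.

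**Figure D2:**
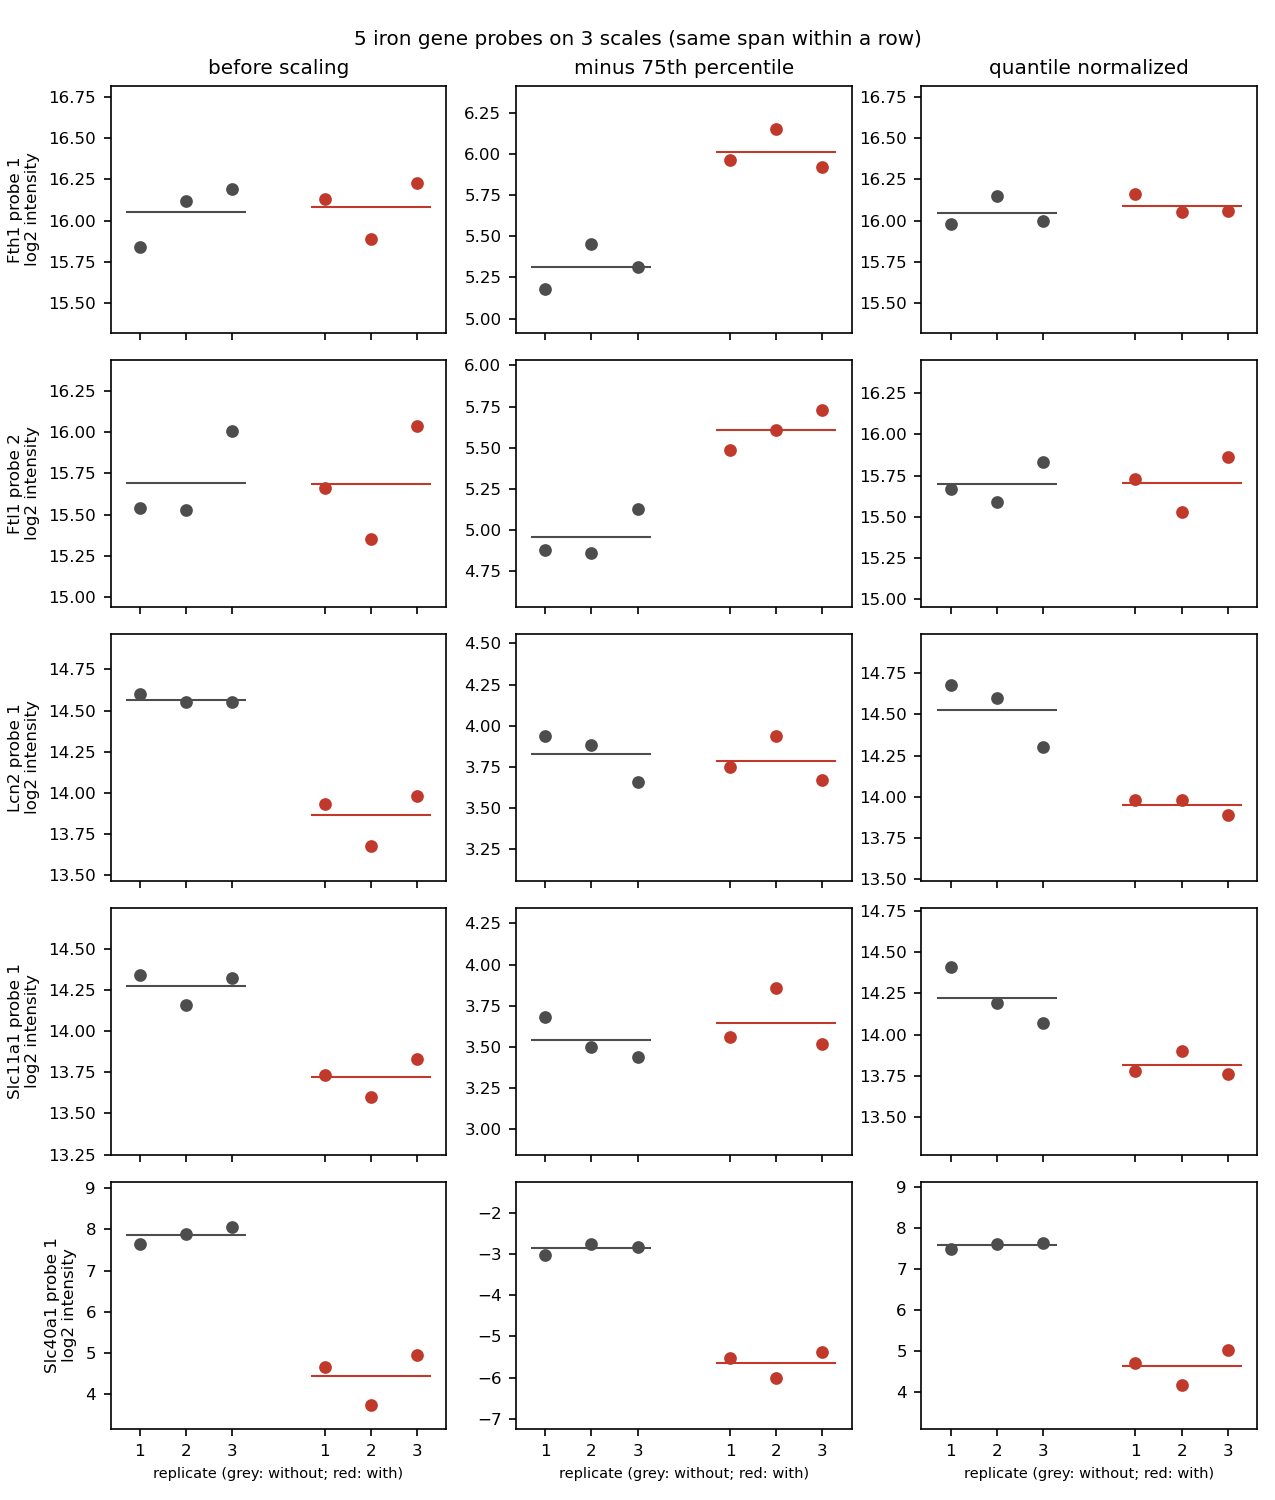
Log2 intensity of 5 iron gene probes before scaling, relative to the 75th percentile of the array and after quantile normalization, with replicate on the x axis, grey for control and red for PGC-1α, and lines at group means. Fth1 and Ftl1 separate only in the middle column, Lcn2 and Slc11a1 separate only in the outer columns, and Slc40a1 separates in all 3.

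The ferritin chains were higher on the PGC-1α arrays under the 75th percentile and did not pass the test after quantile normalization. Fth1 (NM_010239) encodes the heavy chain, which oxidizes iron as it enters the shell. Its levels were 5.18, 5.45 and 5.31 in the controls and 5.96, 6.15 and 5.92 with PGC-1α. The groups did not overlap, and the means of 5.31 ± 0.14 and 6.01 ± 0.13 (SD, n = 3 each) gave a difference of 0.70 (SE 0.13, limma adjusted p = 0.0042), or 1.62-fold.

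Ftl1 (NM_010240) encodes the light chain, which favors mineral growth inside the shell. Probe 1 read 5.11 and 5.36 on 2 control arrays, its spot on control replicate 1 being an outlier, and 5.71, 5.91 and 5.91 with PGC-1α, a difference of 0.61 (limma adjusted p = 0.016). Probe 2 read 4.88, 4.86 and 5.13 against 5.49, 5.61 and 5.73, a difference of 0.65 (SE 0.14, limma adjusted p = 0.0057). Neither probe had overlapping groups.

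These rises lie within the range of all very bright probes, and the part of brightness in them was not tested. The 3 ferritin probes were brighter than 99.4% to 99.7% of the tested probes. The brightest 1% of tested probes, 248 in number, had a median difference of 0.62, with 0.46 and 0.76 as their 5th and 95th percentiles. After quantile normalization that median was -0.01, and the differences of Fth1 and of Ftl1 probes 1 and 2 were 0.05, 0.00 and 0.01 (limma adjusted p = 0.77, 1.00 and 0.95). Before scaling, Fth1 stood at 15.84, 16.12 and 16.19 in the controls and at 16.13, 15.89 and 16.23 with PGC-1α, which overlap, and no spot of these probes was marked as saturated. The authors' log2 values gave 0.08, -0.12 and 0.02.

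**Figure D3:**
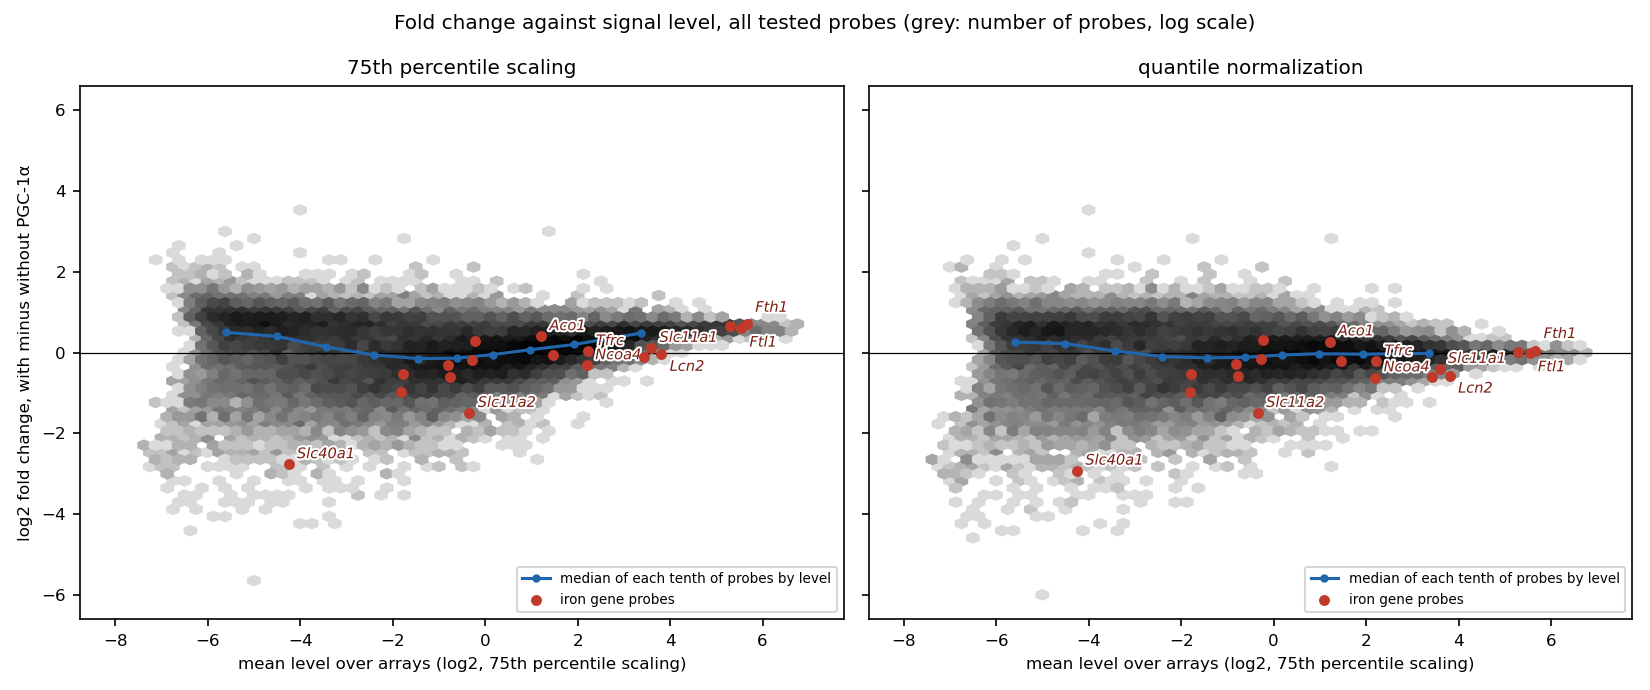
Difference between PGC-1α and control arrays (y axis, log2) against mean level (x axis, log2) for all 24824 tested probes, grey by number of probes, under 75th percentile scaling and after quantile normalization, with the 18 iron gene probes in red and the median of each of 10 brightness classes in blue. On the left the blue line climbs to 0.48 in the brightest class and the ferritin probes lie on the band of bright probes, and on the right both lie near 0.

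The bases before the RefSeq transcription starts of the 2 ferritin genes are shown side by side. They are 250 bases each from the mouse assembly GRCm38.p6, 5′ to 3′ in the direction of the gene. The ferritin differences lie within the range of very bright probes, and the part of these bases in them was not tested. Capitals mark the GC box GGGCGG, on either strand, a motif bound by Sp1-type factors. It begins 175, 77 and 30 bases before the start of Fth1 at chr19:9982396-9982645 on the plus strand, and 183 bases before that of Ftl1 at chr7:45459887-45460136 on the minus strand.
Fth1: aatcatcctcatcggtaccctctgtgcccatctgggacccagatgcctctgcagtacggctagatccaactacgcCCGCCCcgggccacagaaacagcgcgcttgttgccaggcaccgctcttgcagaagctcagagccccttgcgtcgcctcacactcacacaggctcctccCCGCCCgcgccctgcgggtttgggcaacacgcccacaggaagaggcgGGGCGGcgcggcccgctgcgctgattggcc
Ftl1: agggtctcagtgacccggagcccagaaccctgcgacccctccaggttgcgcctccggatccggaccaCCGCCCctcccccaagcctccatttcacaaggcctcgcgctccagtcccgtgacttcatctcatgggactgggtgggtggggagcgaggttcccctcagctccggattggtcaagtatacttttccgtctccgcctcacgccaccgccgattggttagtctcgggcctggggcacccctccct
A GC box was present in 32.7% of the 32851 windows in the table and in 7 of the 12 windows of the 8 iron genes found there, those of Aco1, Ireb2, Lcn2, Ncoa4 and Tfrc included. The core of the antioxidant response element, TGACNNNGC, which is known from distal ferritin enhancers, was in 10.2% of windows and in neither of these, and of those 12 windows only 1 of Ncoa4 held it. The E-box CACGTG was in 6.0% of windows and in none of those 12. A second start listed for Fth1 had none of these motifs. Slc40a1 and Slc11a2 are not in the table.

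Ncoa4 encodes the receptor that brings ferritin to the lysosome for iron release. Probe 1 had values on 2 arrays of each group, 2.35 and 2.38 against 1.74 and 2.35, and probe 2 (NM_001033988) read 1.31, 1.58 and 1.57 in the controls and 1.41 and 1.44 on 2 PGC-1α arrays. Groups overlapped for both. The differences were -0.32 and -0.06 (limma adjusted p = 0.29 and 0.76), and -0.62 and -0.20 after quantile normalization (limma adjusted p = 0.095 and 0.31).

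The 2 iron regulatory proteins gave differences of opposite sign. Aco1 (NM_007386) encodes IRP1, which works as a cytosolic aconitase when it holds an iron-sulfur cluster. Probe 1 read 1.20, 0.95 and 0.87 in the controls and 1.37, 1.56 and 1.29 with PGC-1α, with no overlap and a difference of 0.40 (SE 0.14, limma adjusted p = 0.046). It did not pass after quantile normalization (0.27, limma adjusted p = 0.14), nor in 4 of 6 fits that left out 1 array (control replicate 2 or 3, 0.37 and 0.33; PGC-1α replicate 1 or 2, 0.42 and 0.32). Probe 2 differed by 0.29 (limma adjusted p = 0.16) and by 0.30 after quantile normalization (limma adjusted p = 0.16).

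Ireb2 (NM_022655) encodes IRP2, which is degraded when iron is plentiful. Its levels were -0.86, -0.35 and -0.17 in the controls and -0.77, -1.73 and -0.69 with PGC-1α. The lowest value was that of PGC-1α replicate 2, and control replicate 1 overlapped the other group. The difference of -0.60 (SE 0.30, limma adjusted p = 0.12) shrank to -0.27 without PGC-1α replicate 2, and was -0.58 after quantile normalization (limma adjusted p = 0.16).

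**Figure D4:**
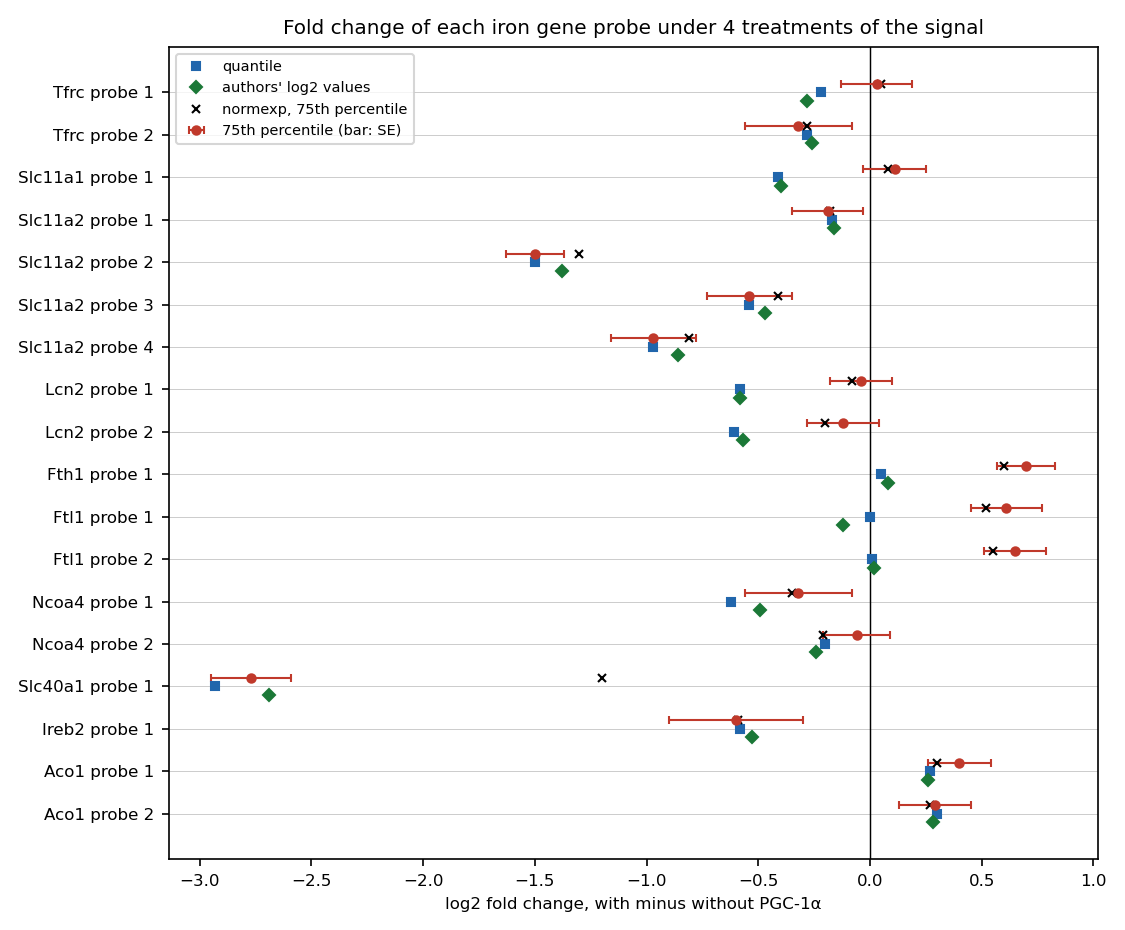
Difference between PGC-1α and control arrays for each iron gene probe (x axis, log2), with red circles and SE bars for 75th percentile scaling, blue squares for quantile normalization, green diamonds for the authors' log2 values and black crosses for normexp background correction. Slc40a1 and Slc11a2 probes 2 and 4 lie below 0 under all 4, the ferritin probes lie near 0.6 under both 75th percentile scalings and near 0 under the others, and the Lcn2 probes lie near 0 under 75th percentile scaling and near -0.6 after quantile normalization and in the authors' values.

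Balances between partners were read within each array, where the scaling factor of the array cancels but a shift that depends on brightness does not. 6 ratios were compared, each from the brightest probe of either gene, and with 3 arrays against 3, or 3 against 2, no exact permutation test can go below p = 0.1, nor below 0.33 with 2 against 2. The log2 ratio of Tfrc to Slc40a1, uptake against export, was 5.10, 5.19 and 4.90 in the controls and 7.78 and 7.56 with PGC-1α, a difference of 2.61 (SE 0.14, exact permutation test, two-sided p = 0.1, adjusted over the 6 ratios 0.2). With normexp background correction the difference was 1.3.

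The ratio of Tfrc to Fth1, uptake against storage, was -3.09, -3.02 and -3.23 in the controls and -3.70 and -3.72 with PGC-1α, a difference of -0.60 (exact permutation test, two-sided p = 0.1, adjusted 0.2). These probes lie in brightness classes 9 and 10, whose median differences were 0.20 and 0.48. Slc11a1 over Slc11a2 was 3.64, 3.63 and 3.89 in the controls and 3.96, 4.07 and 4.02 with PGC-1α, a difference of 0.29 (exact permutation test, two-sided p = 0.1, adjusted 0.2) that rests on Slc11a2 probe 1 and was 0.90 with the mean of each gene's tested probes. Slc11a1 and Slc11a2 probe 1 lie in brightness classes 10 and 6, whose median differences were 0.48 and -0.14. After quantile normalization the differences of these probes were -0.41 and -0.17, and the ratio was not tested on that scale. Ncoa4 over Fth1 was -3.11 and -2.93 on 2 control arrays and -4.42 and -3.57 on 2 PGC-1α arrays, without overlap. Its difference of -0.98 had the smallest p that 2 against 2 allows (exact permutation test, two-sided p = 0.33, adjusted 0.4), and it was -0.62 with the mean of probes. Fth1 over Ftl1 differed by 0.02 and Ireb2 over Aco1 by -1.0 (exact permutation tests, two-sided p = 1.0 and 0.2, adjusted 1.0 and 0.3). The difference in the ratio of heavy to light ferritin chain was within the spread of the arrays, with an SE of 0.21.

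A wider list of 72 iron and heme genes that does not include the 10 gives their surroundings, each gene by its brightest tested probe. Of these, 53 were tested, and 15 were higher and 9 lower with PGC-1α, against 35.9% higher and 19.1% lower of all 17172 genes so represented. Their median difference was 0.16 beside 0.23 for all genes. After quantile normalization 5 were higher and 11 lower, with medians of -0.08 for the list and 0.02 for all genes. The shares of all genes on that scale are not given here, and of all tested probes 19.4% were higher and 23.6% lower. Whether the list departs from the general rate was not tested. All 9 lower genes but only 5 of the 15 higher genes passed under both scalings.

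Of 8 genes tested in the transferrin cycle and uptake, 2 were lower and none higher by the brightest probe. Slc39a14, the zinc and iron importer ZIP14, read 0.42, 0.10 and 0.34 in the controls and -0.83, -1.09 and -1.05 with PGC-1α, a difference of -1.28 (SE 0.14, limma adjusted p = 4.5e-04) and of -1.27 after quantile normalization. Tfr2, the second transferrin receptor, was lower by its 2 probes, with differences of -0.68 and -0.96 (limma adjusted p = 0.0063 and 8.9e-04), or -0.65 and -0.97 after quantile normalization. Slc22a17, a receptor for lipocalin 2, was higher on its dimmer probe (0.74, limma adjusted p = 0.0059; 0.65 after quantile normalization) and did not pass on its brighter one (0.15, limma adjusted p = 0.37). Trf, transferrin itself, differed by 0.34 (limma adjusted p = 0.075), and by -0.14 after quantile normalization (limma adjusted p = 0.39).

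In the storage and iron chaperone group all 3 tested genes, Pcbp2 (0.68), Bola2 (0.65) and Glrx3 (0.49), were higher under the 75th percentile, and none passed after quantile normalization (0.10, 0.04 and -0.06). Their group means of 3.71 to 5.06 lie in the brightest class, whose median difference was 0.48, and the part of brightness was not tested. Pcbp2 encodes a chaperone that delivers iron to ferritin, and Bola2 and Glrx3 form a complex that carries iron-sulfur clusters.

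In the export group, the multicopper oxidases that oxidize exported iron moved in both directions. Of 6 tested genes, 3 were higher and 1 lower, and 2 were higher and 1 lower after quantile normalization. Hephl1 read -3.22, -2.88 and -3.26 in the controls and -2.02, -1.92 and -2.31 with PGC-1α, a difference of 1.04 (limma adjusted p = 0.0018). Heph, hephaestin, rose by 0.81 (limma adjusted p = 0.0092) on the 1 of its 3 probes that was above background. Both passed after quantile normalization too, with 0.99 and 0.82. Cp, ceruloplasmin, fell by 0.54 (limma adjusted p = 0.012), and by 0.55 after quantile normalization, its other tested probes differing by -0.99 and -0.22.

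Among genes that control the iron regulatory proteins, 1 of 3 was lower. Fbxl5, the iron-sensing subunit of the ligase that removes IRP2, differed by -1.04 (limma adjusted p = 0.033, with 2 control values) on the brighter and -0.22 (limma adjusted p = 0.20) on the dimmer of its probes, or -1.04 and -0.19 after quantile normalization. In the mitochondria, 4 of 16 genes were higher and 1 lower, and 1 was higher and 1 lower after quantile normalization. Cisd2, an iron-sulfur protein of the endoplasmic reticulum and mitochondria, rose by 0.59, with 0.05 on its dimmer probe, and Abcb10, a transporter of the inner mitochondrial membrane linked to heme synthesis, fell by 0.65 (limma adjusted p = 0.0043). Both passed after quantile normalization (0.58 and -0.62). Slc25a37, mitoferrin 1, did not pass on its brightest probe (-0.20) and was higher on its other 2 (0.65 and 0.38, limma adjusted p = 0.0065 and 0.047).

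In heme synthesis, Alas1 was lower on every probe. It encodes the rate-limiting enzyme of the pathway in cells other than erythroid ones. Its brightest probe read 2.53, 2.47 and 2.24 in the controls and 1.11, 1.56 and 1.19 with PGC-1α. The 3 probes were lower with differences of -1.13, -1.30 and -1.54 (limma adjusted p = 0.0012, 5.9e-04 and 1.2e-04), and of -1.37, -1.44 and -1.63 after quantile normalization. Of 7 tested genes in this group, 2 were higher and 1 lower, whereas 1 was higher and 3 lower after quantile normalization. Uros, a later enzyme, was higher by 0.55 on its brightest probe and lower on another, with a difference of -1.09, or 0.51 and -1.18 after quantile normalization.

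In heme uptake, breakdown and transport, 2 of 10 genes were higher and 3 lower, and 1 was higher and 3 lower after quantile normalization. Bach1, the heme-sensing repressor of Hmox1 and the ferritin genes, read -1.44, -1.36 and -1.32 in the controls and -2.30, -2.89 and -1.91 with PGC-1α, a difference of -0.99 (limma adjusted p = 0.0090). Flvcr1, a heme exporter, fell by 0.80 (limma adjusted p = 0.023). Both passed after quantile normalization (-1.01 and -0.81). Hmox2, the constitutive heme oxygenase, did not pass on its brightest probe (-0.03) and was lower on another (-0.35, limma adjusted p = 0.034). Hmox1, heme oxygenase 1, which releases iron from heme, differed by 0.70 without passing (limma adjusted p = 0.059; 0.45 after quantile normalization, limma adjusted p = 0.22).

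**Figure D5:**
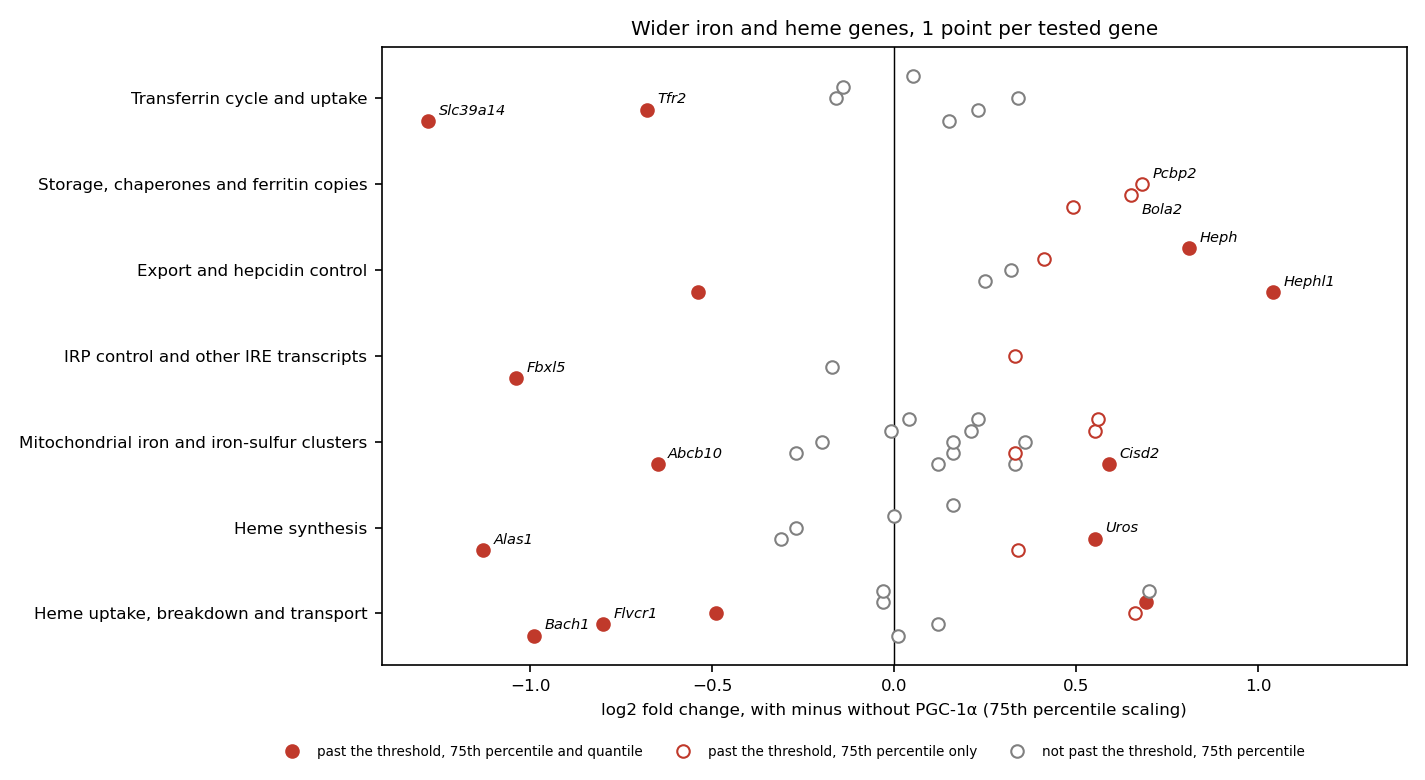
Difference between PGC-1α and control arrays (x axis, log2, 75th percentile scaling) for the 53 tested genes of the wider list by role, filled red where the gene passed the threshold under both scalings, open red under the 75th percentile only and open grey where it did not pass. Slc39a14, Alas1, Fbxl5 and Bach1 lie lowest, Hephl1 and Heph highest, and the storage genes are all open.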

How the data were processed

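RNA of LPS-treated BV2 cells was measured on 6 Agilent mouse 1-color arrays, 3 control and 3 PGC-1α. The arrays lay on 2 slides, 4 on the first and 2 on the second, and each slide held both groups. Per the labels, the dye was Cy3 in one field and Cy5 in another, and the deposited files hold the green channel. The deposited intensity values were made by the authors with Agilent Feature Extraction 11.5.1.1, background-subtracted but not normalized between arrays. The authors also deposited normalized log2 values, per the study from GeneSpring with no procedure named, used as an alternative.

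Here log2 intensity minus the 75th percentile of each array (59305 spots) was taken, each array lost the 149 to 1590 spots that carried an outlier mark, and spots of one probe were averaged. The 56605 probes were named by RefSeq accession through a table of assembly GRCm38.p6 (33767 matched, 59.7%); the array design names another assembly, so no probe coordinates are given. A probe was tested if either group had it well above background on its 3 arrays and both groups kept 2 values or more. limma 3.58.1 in R 4.3.3 (lmFit, eBayes, two-sided, Benjamini-Hochberg over all 24824 tested probes) compared the groups, and exact permutation tests the within-array ratios. On simulated arrays of 23405 probes with 200 changed, 0%, 44.5% and 94% of log2 changes of 0.5, 1 and 2 were recovered. Precision is limited by having 6 arrays.

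The members and gene lists were chosen with earlier results of these data known. Named from the wider list were, per role, the 2 genes with the largest absolute difference among those past the threshold with groups that do not overlap; Trf, Slc22a17, Slc25a37, Glrx3, Cp, Hmox1 and Hmox2 were added after their values were seen, and some genes of these lists are not reported here. Tables and plots used Python 3.11.15, numpy 2.4.6, pandas 2.3.3, scipy 1.17.1 and matplotlib 3.10.9. Alternatives were other normalizations (quantile, median, cyclic loess), normexp background correction with an offset of 50, other filters and probe rules, slide or replicate blocks, slide 1 alone, robust eBayes with a trend, array weights, the authors' values and each array left out.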

Additional observations from a re-analysis of the deposited data

How the results depend on the processing

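Cyclic loess was added after the data were seen; all other alternatives were planned. The count of higher iron probes, 4, was 0 with quantile normalization, with normexp and quantile normalization, with the authors' values and with cyclic loess, 2 on slide 1 alone, 2 with the mean of the tested probes of each gene, which counts genes, and 2 to 4 with an array left out (2 without control replicate 2 or 3). That higher count was 5 with array weights, and 3 with the median or with normexp and the 75th percentile. The count of lower iron probes, 4, was 7 with normexp and quantile normalization. It was 6 with quantile normalization, the authors' values, cyclic loess or array weights, and 5 with normexp and the 75th percentile. It was 3 with no filter on dim probes or with unmatched probes kept, and 3 to 4 with an array left out. It was 1 with the brightest probe of each gene, which drops 3 probes of Slc11a2, and 2 with the mean of probes. The wider list's 15 higher genes became 5 with quantile normalization, 9 with the median, 4 with normexp and quantile normalization, 25 with array weights, 4 with the authors' values, 4 with cyclic loess and 9 to 12 with an array left out (9 without control replicate 2), and its 9 lower genes became 6 to 10 with an array left out and 6 to 13 over all alternatives. Of all tested probes, 12970 passed, 59.5% of them higher (45.1% with quantile normalization), 21018 with unmatched probes kept, more by construction, and 9701 to 12798 with an array left out. Except where a construction is named, the cause was not tested.

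Slc40a1 and Slc11a2 probes 2 and 4 kept direction and call in all 21 probe-level alternatives. Tfrc probe 1 (0.03) turned to -0.22 with quantile normalization, -0.07 with the median, -0.16 with normexp and quantile normalization, -0.02 with outlier spots kept, -0.05 with the mean of probes, -0.06 with array weights, -0.28 with the authors' values, -0.22 with cyclic loess and -0.03 to 0.14 with an array left out. Slc11a1 (0.11) turned to -0.41 with quantile normalization, -0.40 with normexp and quantile normalization, -0.40 with the authors' values and -0.34 with cyclic loess, and was 0.00 with the median and 0.00 to 0.18 with an array left out. Fth1 was -0.01 with cyclic loess. Ftl1 probe 1 was 0.00 with quantile normalization, -0.12 with the authors' values and -0.07 with cyclic loess, and probe 2 was -0.02 with normexp and quantile normalization and 0.00 with cyclic loess. Lcn2 probe 1 (-0.04) was -0.12 to 0.02 with an array left out. Over the 18 probes and their 380 alternatives, 314 kept direction and call and 24 turned direction. Without a turn of direction, 29 lost and 13 gained the call. Some of the 24 that turned also lost or gained it, and these are not in the 29 and 13.

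The ratio of Fth1 to Ftl1 (0.02) was -0.03 with normexp and -0.18 to 0.22 with an array left out. The other ratios kept their sign with the mean of probes, with normexp and with an array left out, the only alternatives run for ratios. They were not tested with quantile normalization, cyclic loess or the authors' values. With an array left out they were -0.65 to -0.55 for Tfrc over Fth1, 2.50 to 2.72 for Tfrc over Slc40a1 and -1.40 to -0.56 for Ncoa4 over Fth1. Slc11a1 over Slc11a2 was then 0.25 to 0.37 and Ireb2 over Aco1 -1.30 to -0.60. Arrays numbered 1 and 2 did not deviate together with their own number (r = -0.195 and 0.019), whereas those numbered 3 did (r = 0.603). Only the arrays numbered 3 correlated best with their own number, so the numbers were not taken as pairs. The arrays numbered 3 were also those on slide 2, and the part of the slide in this correlation was not tested. With the replicate block 14076 probes passed, the iron counts stayed 4 and 4, and the wider list had 13 higher and 9 lower genes.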
